A study of Mus musculus with 8 samples.

Results

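The genes described here are 10 genes of transforming growth factor beta (TGF-beta) signalling and of growth factor and matrix pathways tied to marrow fibrosis, out of 20887 genes that the probes of the array could be matched to. They were chosen by RefSeq symbol, and each was read from its brightest probe on all 8 arrays. They are the ligands Tgfb1, Tgfb2 and Tgfb3, the receptors Tgfbr1 and Tgfbr2, the intracellular inhibitor Smad7, the platelet-derived growth factor chains Pdgfa and Pdgfb, the collagen crosslinking enzyme Lox and the metalloproteinase inhibitor Timp1. Every value below is a log2 signal minus the 75th percentile of its array, so that 0 is the level of the probe at that percentile.

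Cells of the marrow fraction that holds the stem cells (LSK, which lack Lineage antigens and carry c-Kit and Sca-1) and bipotent progenitors of megakaryocytes and red cells (MEP) were sorted from mice labelled as strain C57BL/6. These were CD45.1+ wild-type recipients that had been lethally irradiated and given whole marrow of 4 genotypes. The donors were Cre-ERT2 (WT), Ezh2flox/flox;Cre-ERT2 (Ezh2Δ/Δ), JAK2V617F;Cre-ERT2 (JAK2V617F) and JAK2V617F;Ezh2flox/flox;Cre-ERT2 (JAK2V617F/Ezh2Δ/Δ, the double mutant), so that every group carried Cre-ERT2. Ezh2, the methyltransferase of polycomb repressive complex 2, was deleted 4 weeks after transplantation, and the cells were taken at 2 months, with 20 ng of RNA labelled for each array. The marrow stroma is that of the wild-type host, and the arrays hold sorted blood progenitors, not stroma. The promoters that drive Cre-ERT2 and JAK2V617F, the age of the mice and whether cells of several mice were pooled are not given in the sources used here.

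TGF-beta is secreted in a latent form and acts, once freed, through the paired kinases Tgfbr2 and Tgfbr1, which phosphorylate SMAD proteins; Smad7 is induced by the pathway and blocks these receptors. JAK2V617F is the activated kinase of myeloproliferative neoplasms, in which the marrow can become fibrotic. In that setting megakaryocytes and platelets are known sources of TGF-beta1 and platelet-derived growth factors that act on stromal fibroblasts, lysyl oxidase crosslinks the deposited collagen, and Timp1 restrains the proteases that degrade it.

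Promoter sequences are shown for Tgfbr1, Tgfbr2 and Pdgfa, which were lower in MEP than in LSK with signal on every array, and for Tgfb1, which had a similar mean in both. Each is the 250 bases before the transcript start listed by RefSeq (build GRCm38.p6), the most upstream start where 2 are listed, read 5′ to 3′ on the strand of the gene. They lie at chr4:47352972-47353221 on the plus strand (Tgfbr1), chr9:116175364-116175613 on the minus strand (Tgfbr2), chr5:138994945-138995194 on the minus strand (Pdgfa) and chr7:25686752-25687001 on the plus strand (Tgfb1). Capitals mark the GC box, GGGCGG or its reverse complement CCGCCC.
Tgfbr1: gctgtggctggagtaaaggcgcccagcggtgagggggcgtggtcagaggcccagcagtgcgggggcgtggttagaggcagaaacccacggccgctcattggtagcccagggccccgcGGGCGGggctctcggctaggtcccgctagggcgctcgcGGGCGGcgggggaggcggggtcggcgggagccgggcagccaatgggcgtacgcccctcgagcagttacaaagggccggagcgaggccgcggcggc
Tgfbr2: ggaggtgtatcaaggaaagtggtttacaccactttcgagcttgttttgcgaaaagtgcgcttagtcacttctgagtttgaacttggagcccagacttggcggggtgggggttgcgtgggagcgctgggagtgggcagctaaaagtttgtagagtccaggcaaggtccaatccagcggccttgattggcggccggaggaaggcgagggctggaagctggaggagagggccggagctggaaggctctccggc
Pdgfa: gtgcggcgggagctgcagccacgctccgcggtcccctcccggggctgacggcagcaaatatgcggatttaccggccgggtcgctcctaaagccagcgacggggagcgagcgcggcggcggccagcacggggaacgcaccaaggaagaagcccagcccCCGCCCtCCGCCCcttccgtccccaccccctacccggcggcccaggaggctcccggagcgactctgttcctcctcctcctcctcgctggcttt
Tgfb1: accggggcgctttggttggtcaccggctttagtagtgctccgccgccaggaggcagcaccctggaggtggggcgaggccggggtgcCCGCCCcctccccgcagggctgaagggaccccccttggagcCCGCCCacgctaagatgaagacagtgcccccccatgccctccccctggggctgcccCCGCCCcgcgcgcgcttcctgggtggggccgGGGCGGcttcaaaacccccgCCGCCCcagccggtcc

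These windows differ in composition. The Tgfb1 promoter holds 5 GC boxes, those of Tgfbr1 and Pdgfa hold 2 each, and that of Tgfbr2 holds 0, where 32.7% of all 32851 promoters of the same length hold at least 1. G and C make up 75.2% of the Tgfb1 window, 74.8% of Tgfbr1, 72.4% of Pdgfa and 58.4% of Tgfbr2. The CG dinucleotides number 29 in Tgfbr1, 28 in Pdgfa, 21 in Tgfb1 and 12 in Tgfbr2, against a median of 6 over all promoters. As many as Tgfbr1 has are found in 6.8% of promoters, and as many as Tgfbr2 has in 33.5%. Neither GATAAG nor TGTGGT, letters used as motifs of GATA and RUNX factors, nor TATAAA occurs on either strand of these 4 windows. They occur in 6.5%, 14.0% and 12.4% of all promoters, and no GC box overlaps another in these windows.

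All 8 arrays lie on 1 slide with 1 scan, with the cell type as the row and the genotype as the column, so position cannot be told apart from the groups. There is 1 array a group and so no replicate, and nothing in the labels says whether an array stands for 1 animal. Between 39.8% and 48.8% of probes were well above background, by the flag of the scanner software, and 0 spots were saturated. The erythroid markers were higher in MEP for 8 of 8 genes (median log2 difference 4.78), and 6 of 7 LSK markers were lower (median -4.27), as tested below. The Ezh2 probe read 3.36 to 3.59 on the LSK arrays and 3.57 to 4.04 on the MEP arrays with the deletion, against 3.499 to 3.83 and 4.14 to 4.23 without it, and whether it lies within the deleted part is not given. Donor sex follows Ezh2 status: Xist was 6.68 higher, and Ddx3y and Eif2s3y were lower on all 4 arrays with the deletion, so sex and the deletion cannot be told apart.

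**Figure D1:**
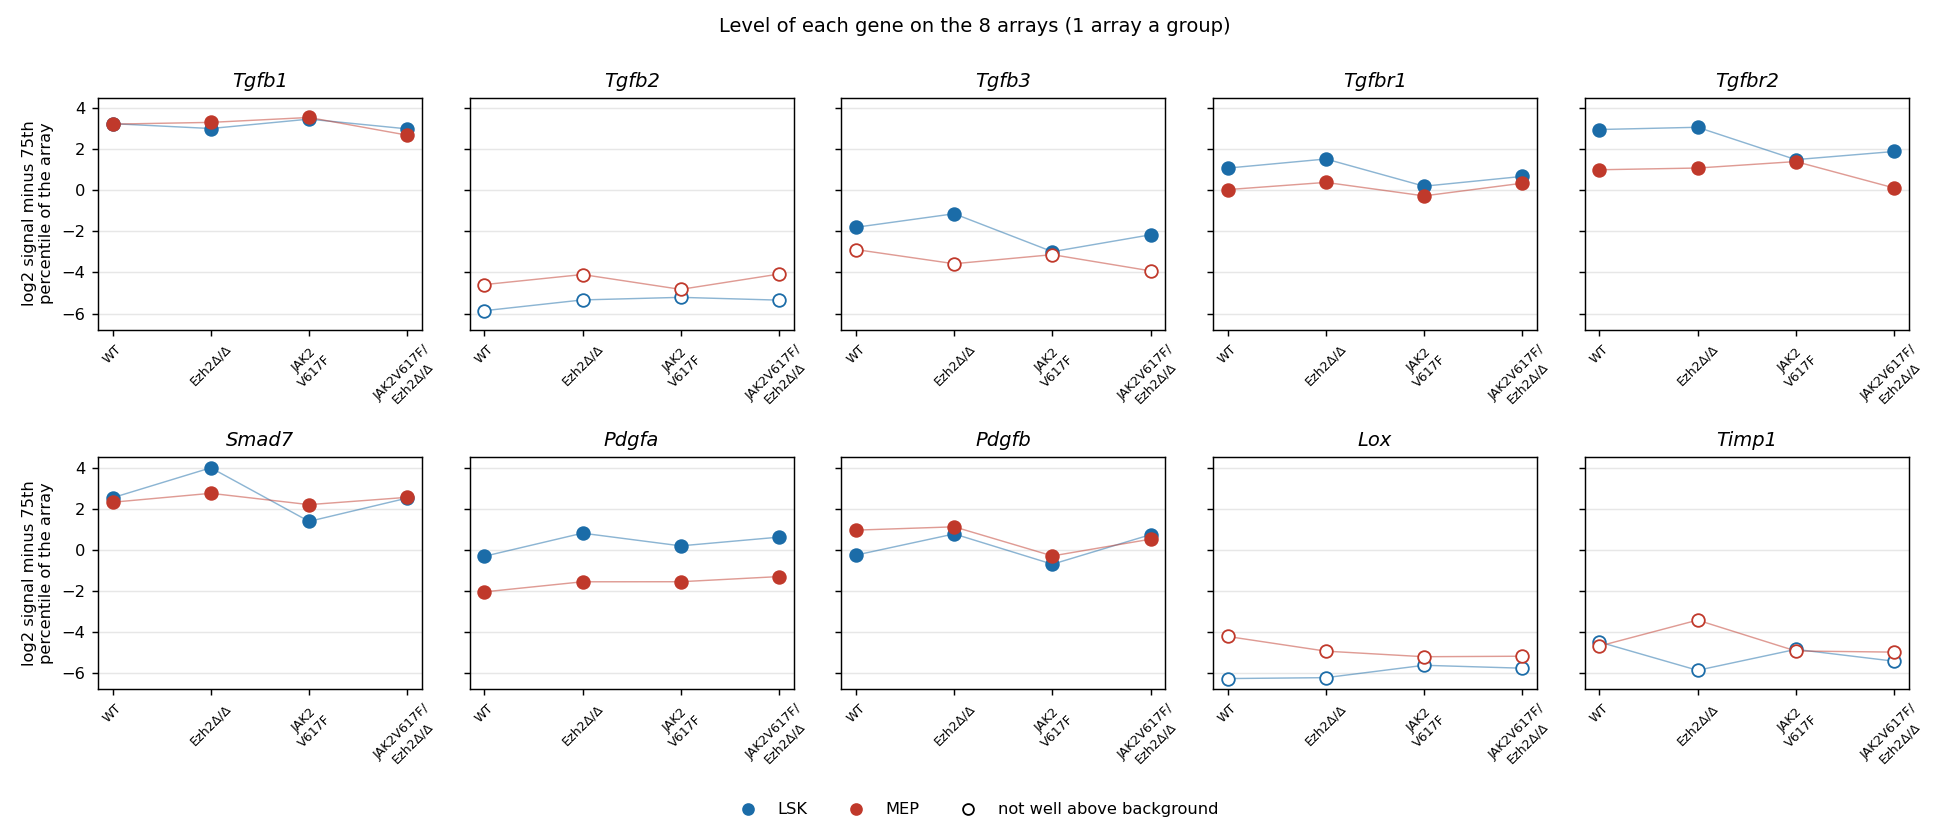
Each panel plots the log2 signal minus the 75th percentile of the array (y axis) for 1 gene in the 4 genotypes (x axis), with LSK in blue and MEP in red. Each circle is 1 array, an open circle is a probe not well above background, and lines only join arrays of a cell type. Pdgfa and Tgfbr2 separate LSK from MEP, while Tgfb1 lies between 2.69 and 3.55 on all 8 arrays.

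Of the 10 genes, 6 were well above background on all 8 arrays, Tgfb3 was above it on the 4 LSK arrays alone, and Tgfb2, Lox and Timp1 were above it on 0 arrays. The plot of levels by genotype shows each of them. The 7 genes detected on at least 2 arrays were tested with limma, in an additive fit of the cell type and both genotypes that averages each effect over 4 matched pairs of arrays and adjusts p over 13187 genes by Benjamini-Hochberg. A gene is called at an adjusted p under 0.05. The p-values measure only the spread between these arrays. In RNA of sorted cells, fewer cells that carry a transcript and less of it per cell cannot be told apart.

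Among the ligands, Tgfb1, the main TGF-beta of blood cells and platelets, was present at a similar level in stem cell and progenitor fractions. On the LSK arrays it read 3.25 in WT, 3.01 in Ezh2Δ/Δ, 3.47 in JAK2V617F and 2.99 in the double mutant. The MEP arrays gave 3.22, 3.31, 3.55 and 2.69 in the same order. JAK2V617F was the highest array and the double mutant the lowest in both cell types, and LSK and MEP overlapped. This probe is printed 10 times on each array, and the SD of log2 between its spots was 0.03 to 0.06, which measures the array and not the spread between animals or preparations.

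Tgfb2 and Tgfb3 encode the other ligands. Tgfb2 read between -5.86 and -4.08, not well above background on any array, on both of its probes, so its values have no order. Tgfb3 on the LSK arrays read -1.80 in WT, -1.14 in Ezh2Δ/Δ, -2.99 in JAK2V617F and -2.16 in the double mutant. Both JAK2V617F arrays of LSK lay below both arrays without it. In MEP the Tgfb3 values were -2.88, -3.57, -3.13 and -3.92, all not well above background. Its probe is also printed 10 times, and the SD between spots reached 0.79.

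The type I receptor Tgfbr1 read 1.08, 1.53, 0.20 and 0.68 on the LSK arrays of WT, Ezh2Δ/Δ, JAK2V617F and the double mutant. Its MEP values were 0.04, 0.39, -0.27 and 0.35. Tgfbr1 was thus lower in MEP within each genotype, although the JAK2V617F LSK array lay within the range of MEP. The type II receptor Tgfbr2, which binds the ligand, read 2.96, 3.07, 1.49 and 1.89 in LSK and 1.00, 1.09, 1.40 and 0.12 in MEP. The lowest LSK array and the highest MEP array, both JAK2V617F, nearly met, and the ranges did not overlap.

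Smad7, the inhibitor, ranged most widely in LSK, with 2.54 in WT, 3.998 in Ezh2Δ/Δ, 1.39 in JAK2V617F and 2.52 in the double mutant. In MEP it read 2.32, 2.76, 2.20 and 2.56, all within the LSK range. Its SD over the 4 genotypes was 1.07 in LSK and 0.25 in MEP. The LSK arrays with 1 mutation lay on either side of WT, and the double mutant read 0.02 under WT.

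The growth factor chain Pdgfa read -0.31 in WT, 0.81 in Ezh2Δ/Δ, 0.20 in JAK2V617F and 0.62 in the double mutant of LSK. Its MEP values, -2.04, -1.55, -1.55 and -1.30, all lay under those of LSK, and WT was the lowest array in both fractions. Pdgfb, the chain released by platelets, read -0.25, 0.78, -0.70 and 0.74 in LSK and 0.96, 1.12, -0.29 and 0.52 in MEP. JAK2V617F was its lowest array in each cell type and Ezh2Δ/Δ its highest, and the cell types overlapped.

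Of the matrix genes, Lox, the lysyl oxidase that crosslinks collagen, read between -6.27 and -4.21, and both of its probes were not well above background on all arrays. Timp1, an X-linked gene, read between -5.86 and -3.42 and was likewise not well above background. Neither gene has an order or a fold on these arrays.

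Progenitors of the megakaryocyte and erythroid lineage carried less Pdgfa, Tgfbr2, Tgfb3 and Tgfbr1 RNA than LSK cells, while none of the 7 genes tested was called higher. Tgfb3 passed the detection filter through its LSK arrays alone, so its call as lower in MEP is tied to that filter. Over all genes tested 40.0% were called in this comparison, 20.1% lower and 19.9% higher, so a called difference between MEP and LSK is common on these arrays. The median log2 difference was -0.75 over the 7 genes and 0.12 over all genes tested.

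Pdgfa changed most, from 0.33 ± 0.50 in LSK to -1.61 ± 0.31 in MEP (SD over the 4 genotypes, n = 4), and was 3.84-fold lower (log2 difference -1.94, SE 0.19, limma adjusted p = 0.0002). It fell in 4 of 4 pairs, by 1.73 to 2.37. Tgfbr2 went from 2.35 ± 0.78 to 0.90 ± 0.55 (n = 4) and was 2.74-fold lower (log2 difference -1.45, SE 0.33, limma adjusted p = 0.0103). Its pair of JAK2V617F arrays differed by only -0.09, against -1.77 to -1.98 in the other pairs. Tgfbr1 was 1.68-fold lower (log2 difference -0.75, SE 0.19, limma adjusted p = 0.0162), also in 4 of 4 pairs. Tgfb3 was at least 1.76-fold lower, a bound taken at the lowest signal well above background of each MEP array (log2 difference as measured -1.36, SE 0.33, limma adjusted p = 0.0144).

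Tgfb1 differed by 0.01 (SE 0.19, limma adjusted p = 0.963) and Smad7 by -0.15 (SE 0.30, adjusted p = 0.707), each with 2 pairs higher and 2 lower. Pdgfb was 0.44 higher in MEP (SE 0.25, adjusted p = 0.192) in 3 of 4 pairs. These values did not pass the test, and their SEs do not exclude a modest difference.

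The calls of Tgfbr1 and Tgfb3 depended on single arrays. Without the WT or the Ezh2Δ/Δ array of either cell type, Tgfbr1 was -0.63 to -0.69 with an adjusted p of 0.0545 to 0.0660. For Tgfb3 the call was lost without the double mutant MEP array (-1.26, adjusted p = 0.0566) and with normexp background correction (-0.31, adjusted p = 0.0998).

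**Figure D2:**
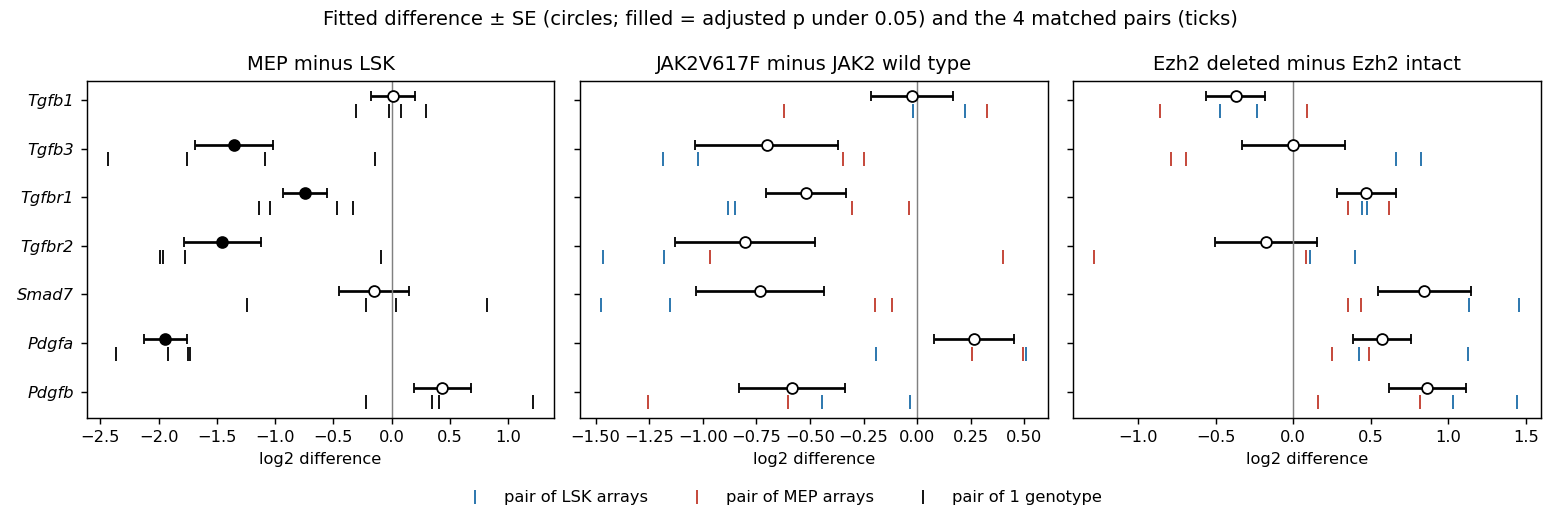
The fitted log2 difference (x axis, circle with SE) is plotted for the 7 genes tested in 3 comparisons, filled where the adjusted p was under 0.05, with the 4 matched pairs as ticks below. Ticks are blue for LSK pairs and red for MEP pairs in the genotype panels, and black for the pairs of MEP and LSK of a genotype. Filled circles appear only for Tgfb3, Tgfbr1, Tgfbr2 and Pdgfa in MEP minus LSK; Smad7 pairs of LSK lie farther from 0 than those of MEP in both genotype panels.

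A second probe bears on 3 of these calls, and the plot of both probes shows them. The other Pdgfa probe, well above background on 8 arrays, averaged -2.08 over the pairs, with all pairs lower. For Tgfbr2 the other probe, above background on 8 arrays, averaged -1.06, also lower in every pair. The other Tgfbr1 probe averaged -1.104 but was above background on only 2 arrays. Pdgfb was read from 1 probe in effect, since its other probe was not well above background on any array. Across these genes 16 probes were matched, and 6 of the 10 genes had more than 1.

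**Figure D3:**
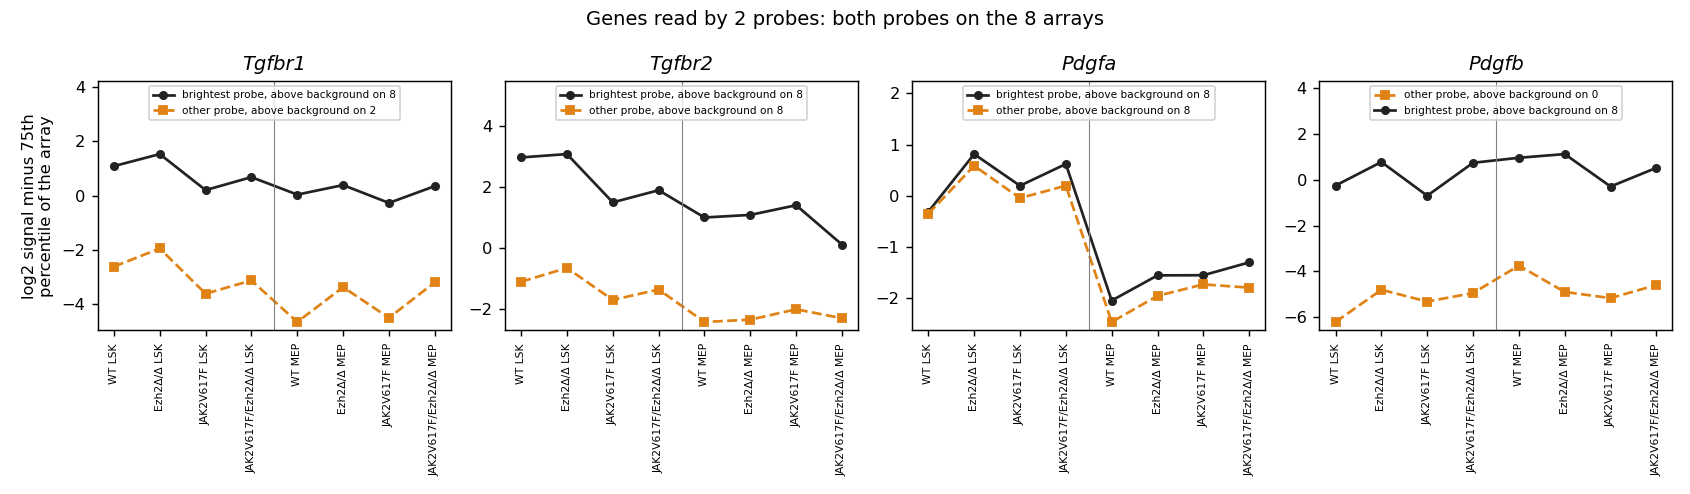
Both probes of Tgfbr1, Tgfbr2, Pdgfa and Pdgfb are plotted as log2 signal minus the 75th percentile of the array (y axis) on the 8 arrays (x axis, LSK left of the line and MEP right), the brightest in black and the other in orange. The Pdgfa probes follow each other, whereas the Tgfbr2 drop in the double mutant MEP array is 1.28 on the brightest probe and 0.29 on the other, relative to JAK2V617F.

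With JAK2V617F none of the 7 genes was called by limma, and 0.326% of all genes tested were called. At an unadjusted p under 0.05, 4 of the 7 were lower and 0 higher, where 10.9% of all genes passed that mark and 5.61% were lower. The median log2 difference was -0.58 over the 7 genes and 0.01 over all genes tested. The 4 genes were Tgfbr2 (-0.80, SE 0.33, limma adjusted p = 0.442), Smad7 (-0.73, SE 0.30, adjusted p = 0.440), Pdgfb (-0.58, SE 0.25, adjusted p = 0.456) and Tgfbr1 (-0.52, SE 0.19, adjusted p = 0.385). The other Tgfbr2 probe averaged -0.21 over the pairs, with 2 of 4 higher: -0.59 and -0.70 in LSK, and 0.41 and 0.05 in MEP. Tgfb3 gave -0.70 (SE 0.33, adjusted p = 0.503) and Pdgfa 0.27 (SE 0.19, adjusted p = 0.649).

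Tgfb1, the ligand most tied to marrow fibrosis, gave -0.02 with JAK2V617F (SE 0.19, limma adjusted p = 0.970), higher in 2 of 4 pairs. Its pairs were 0.22 and 0.32 where Ezh2 was intact, in LSK and MEP, and -0.02 and -0.62 where it was deleted. An interaction of both genotypes was fitted to ask whether the Ezh2 effect depended on JAK2V617F, and for Tgfb1 it was -0.59 (SE 0.35, adjusted p = 0.970). No gene of the 7 reached an unadjusted p under 0.05 for that interaction, and over all genes 0.0% were called and 3.37% passed the unadjusted mark.

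The JAK2V617F differences of the receptors and of Smad7 lay farther from 0 in the LSK pairs than in the MEP pairs. For Smad7 the LSK pairs were -1.15 and -1.47 and the MEP pairs -0.12 and -0.20. For Tgfbr2 they were -1.47 and -1.18 in LSK, against 0.40 and -0.97 in MEP. Tgfbr1 gave -0.88 and -0.85 in LSK, against -0.31 and -0.04. For Tgfb3 the LSK pairs were -1.19 and -1.02 and the MEP pairs, not well above background, were -0.25 and -0.35. Pdgfb went the other way, with -0.44 and -0.03 in LSK and -1.26 and -0.60 in MEP.

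The difference between the JAK2V617F effects in MEP and LSK, fitted with coefficients nested in the cell type, was called for none of the 7 genes by limma and for 0.0% of all genes. At an unadjusted p under 0.05 it was passed by Smad7 (1.16, SE 0.30, adjusted p = 0.365) and Tgfb3 (0.81, SE 0.29, adjusted p = 0.416), where 11.5% of all genes passed and 4.64% were higher. Tgfbr2 gave 1.04 (SE 0.51, adjusted p = 0.462) and Tgfbr1 0.69 (SE 0.30, adjusted p = 0.450).

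Granulocyte markers moved with JAK2V617F: 4 of the 9, all tested, were called higher, with a median of 2.41. Their summed level, as signal over the 75th percentile of the array, was 24.9 to 816 on arrays without JAK2V617F and 178 to 2954 on those with it. Megakaryocyte markers, all 14 tested, had 1 gene called lower and a median of -0.77, but their summed level went opposite ways in the cell types. In LSK it was 84.2 in WT and 79.5 in Ezh2Δ/Δ, against 112 in JAK2V617F and 105 in the double mutant. The MEP arrays gave 394 and 590, against 158 and 133, in the same order. Of the 7 LSK markers, all tested, 0 were called, 3 were lower at an unadjusted p under 0.05 and the median was -0.49. Their summed level on the LSK arrays was 418 in WT and 373 in Ezh2Δ/Δ, against 296 in JAK2V617F and 276 in the double mutant. The part of any of these in the values above was not tested.

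With the Ezh2 deletion none of the 7 genes was called by limma either, and 0.72% of all genes tested were. At an unadjusted p under 0.05, 4 of the 7 were higher and 0 lower, where 18.1% of all genes passed that mark and 7.76% were higher. The median log2 difference was 0.47 over the 7 genes and -0.11 over all genes tested. These 4 were Pdgfb (0.86, SE 0.25, adjusted p = 0.184), Smad7 (0.85, SE 0.30, adjusted p = 0.242), Pdgfa (0.57, SE 0.19, adjusted p = 0.219) and Tgfbr1 (0.47, SE 0.19, adjusted p = 0.264), each higher in 4 of 4 pairs. Tgfb1 gave -0.37 (SE 0.19, adjusted p = 0.322), lower in 3 of 4 pairs. Tgfbr2 gave -0.17 (SE 0.33, adjusted p = 0.779) but was higher in 3 of 4 pairs, with -1.28 in the MEP pair with JAK2V617F. The other Tgfbr2 probe averaged 0.14, also higher in 3 of 4 pairs.

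Pair by pair, Pdgfb differed with the deletion by 1.03 and 1.44 in LSK and by 0.16 and 0.82 in MEP. Pdgfa differed by 1.13 and 0.42 in LSK and by 0.49 and 0.25 in MEP, and its other probe gave 0.94, 0.24, 0.51 and -0.06. Tgfbr1 was the most even, at 0.44, 0.48, 0.35 and 0.62. Smad7 was 1.46 and 1.14 higher in LSK and 0.43 and 0.36 higher in MEP. Tgfb1 was lowest against its partner in the double mutant MEP array, at -0.86.

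Tgfb3 took opposite signs in the cell types, with 0.66 and 0.82 in LSK and -0.69 and -0.79 in MEP, where it was not well above background. The difference between the Ezh2 effects in MEP and LSK was -1.48 for Tgfb3 (SE 0.29, limma adjusted p = 0.382) and -0.90 for Smad7 (SE 0.30, adjusted p = 0.814). These were the 2 of 7 at an unadjusted p under 0.05, 0 of 7 were called, and over all genes 0.00758% were called, 5.25% passed the unadjusted mark and 2.78% were lower. Of 8 B cell markers 6 were tested, 1 was called higher with the deletion and the median was 3.29. On arrays without JAK2V617F their summed level went from 16.9 to 65.7 in LSK and from 3.12 to 51.8 in MEP with the deletion. On arrays with JAK2V617F it went from 22.2 to 21.2 in LSK and from 3.30 to 6.90 in MEP. Pax5 was not well above background on any array, and the part of these markers in the values above was not tested.

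In the double mutant against WT, single arrays with no test, Pdgfa was 0.93 higher in LSK and 0.74 higher in MEP. Tgfbr2 differed by -1.07 in LSK and -0.88 in MEP, but its other probe, above background on all 8 arrays, gave -0.25 and 0.12. Pdgfb differed by 1.00 in LSK and -0.44 in MEP, and Tgfb1 by -0.25 and -0.54. Smad7 differed by -0.02 and 0.24, and Tgfbr1 by -0.40 and 0.31. The sign differed between the cell types for Pdgfb, Smad7 and Tgfbr1.

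The list of TGF-beta ligand activation holds 13 genes that bind, process or free latent TGF-beta. Of these 10 were tested, 2 were called higher and 3 lower in MEP, with a median of 0.13. That is near the shares of all genes tested, 19.9% higher and 20.1% lower, against which the counts of the other lists are read as well. Ltbp1, a latent TGF-beta binding protein, was at least 8.21-fold higher in MEP (log2 difference as measured 4.97, SE 0.37) and was not well above background on any LSK array. It read -0.28 in WT, 0.01 in Ezh2Δ/Δ, -0.66 in JAK2V617F and -1.72 in the double mutant of MEP. Mmp14, a membrane metalloproteinase, was 3.39 higher on the log2 scale (SE 0.27), with 3 of 4 LSK arrays above background. Ltbp3, another binding protein, was 2.38-fold lower, and Itgav, the alpha-v integrin chain, was at least 1.18-fold lower. The Itgav call was lost with normexp background correction (-0.21, limma adjusted p = 0.230). It was also lost with dim values raised to the lowest signal above background (-0.24, limma adjusted p = 0.259). Thbs1, thrombospondin 1, an activator of latent TGF-beta, gave 0.32 (SE 0.49, limma adjusted p = 0.619).

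Other receptors of the family were more often lower in MEP: 5 of 9 were called lower and 1 higher, with a median of -0.90. The higher one was Tgfbr3, betaglycan, a coreceptor that presents ligand to Tgfbr2, at 2.68-fold (log2 difference 1.42, SE 0.24, limma adjusted p = 0.0026). Its LSK values were 1.39, 1.60, 1.06 and 1.82 and its MEP values 2.99, 3.01, 3.15 and 2.41, with no overlap. Acvr1, a type I receptor for bone morphogenetic proteins (BMP), was 5.52-fold lower, and Bmpr2, a type II receptor for them, 2.20-fold lower. Acvr1b, the activin type I receptor, was -1.58 as measured, but it was above background on 2 LSK arrays and 0 MEP arrays and turned to 0.37 with dim values raised to the lowest signal above background. Eng, the endoglin coreceptor, gave 0.25 (adjusted p = 0.451).

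The SMAD signalling list had 5 of 11 tested genes called lower in MEP and 0 higher, of 13 listed, with a median of -0.56. Smad1 and Smad5, which carry BMP signals, were 4.58-fold and 3.07-fold lower, and Smad1 was above background on 1 MEP array. Smad6, an inhibitor of the BMP branch, was 2.24-fold lower and Smad4, the shared partner, 1.80-fold lower. Smad3, which carries TGF-beta signals, was 1.72-fold lower (log2 difference -0.79, SE 0.22, limma adjusted p = 0.0222), a call lost when any 1 of 6 arrays was left out, with adjusted p up to 0.0786. Smad2, its partner, gave -0.26 (SE 0.15, adjusted p = 0.203).

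Genes known to respond to TGF-beta went both ways. Of 12 listed, 10 were tested, 5 were called lower and 2 higher in MEP, with a median of -1.08. Tgfbi, an extracellular matrix protein named for its induction by TGF-beta, was 19.9-fold lower (log2 difference -4.32, SE 0.18). Monocyte and macrophage markers were lower in MEP too, with 5 of 6 tested called lower, a median of -2.17 and summed levels of 51.6 to 114 in LSK and 38.2 to 61.3 in MEP. Of 4 mast cell and basophil markers 3 were tested and called lower, with a median of -3.00 and summed levels of 8.42 to 29.3 in LSK and 1.18 to 3.17 in MEP, and Ms4a2 was not well above background on any array. The part of these markers in the differences of response genes and mediators was not tested. Id1 and Cdkn1c, a transcriptional inhibitor and a cell cycle inhibitor, were 5.94-fold and 4.78-fold lower. Cdkn2b, another cell cycle inhibitor, was at least 3.07-fold higher. It was not well above background on any LSK array or on the WT MEP array (-3.65).

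**Figure D4:**
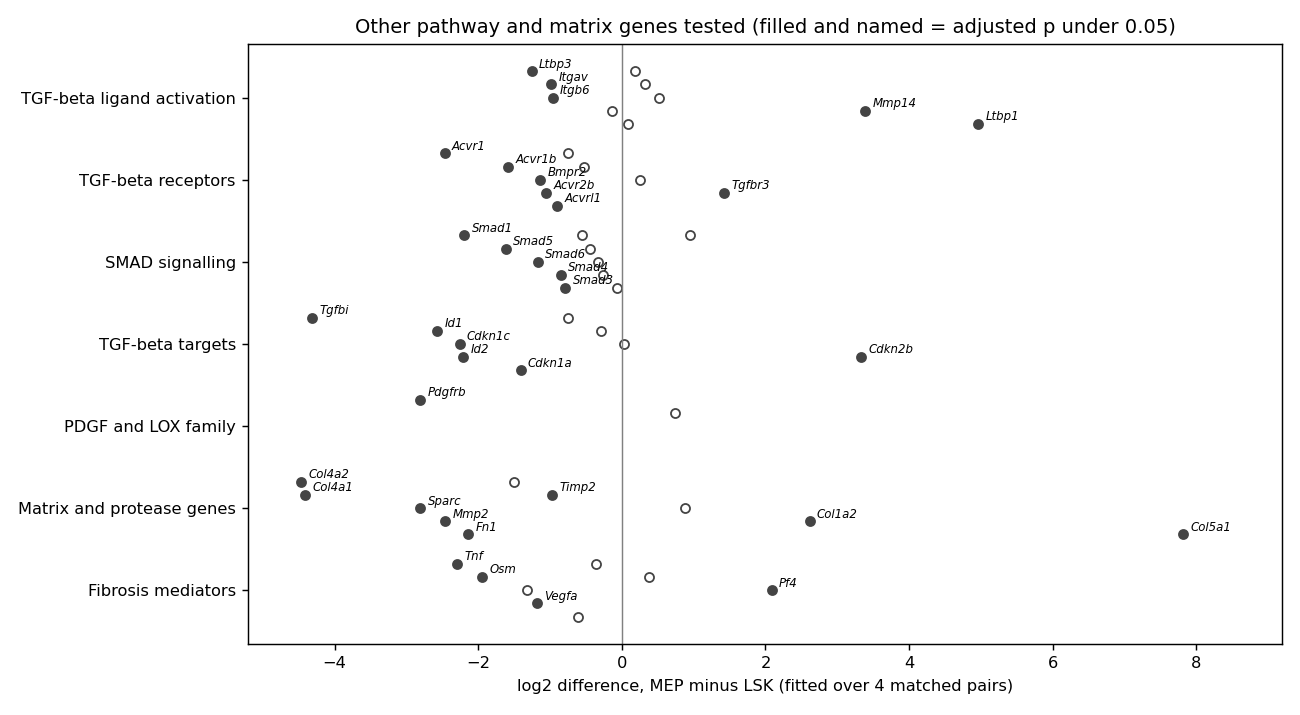
Each circle is 1 tested gene of a list (y axis, with 1 response gene not shown) at its fitted log2 difference, MEP minus LSK (x axis), filled and named where the adjusted p was under 0.05. Receptor and SMAD genes called lower outnumber those called higher, with Tgfbr3 as the only receptor called higher, and Col5a1 lies farthest right at 7.81.

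Of the platelet-derived growth factor and lysyl oxidase family, 2 of 8 listed genes were detected well enough to test. Pdgfrb, the receptor that binds Pdgfb, was 6.98-fold lower in MEP (log2 difference -2.80, SE 0.37, limma adjusted p = 0.0007). It read 1.096, 1.22, 0.75 and 1.01 in LSK and -2.23, -1.47, -0.88 and -2.57 in MEP, with no overlap. Pdgfra, the other receptor, was not well above background on any array, and neither were Pdgfd, Loxl1 and Loxl4.

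Matrix and protease genes were detected in part: 10 of 15 were tested, 6 were called lower and 2 higher in MEP, with a median of -1.82. The basement membrane collagens Col4a2 and Col4a1 were at least 9.92-fold and 5.91-fold lower and not well above background on any MEP array. Sparc, a matrix glycoprotein, was 6.99-fold lower. Col5a1, a fibrillar collagen chain, was 7.81 higher on the log2 scale (SE 0.31), with 1 of 4 LSK arrays above background. Col1a1, a chain of the main fibrillar collagen, and the gelatinase Mmp9 were not well above background on any array. Col1a2, the other chain of that collagen, was well above background on all 8 arrays. It read -2.45 to -0.39 in LSK and 0.53 to 1.94 in MEP, with no overlap. Among 10 stromal and endothelial markers, which include Pdgfra, Pdgfrb and Col1a1, 7 were tested, 1 was called higher and 2 lower in MEP. Pdgfra, Col1a1 and Cdh5 were not well above background anywhere, while 5 of the 10 were well above it on all 8 arrays. These 5 include Lepr, at 2.83 to 3.83 in LSK and 3.57 to 3.88 in MEP. Kdr, also of the 5, read 3.93 to 4.97 in LSK and 4.61 to 5.09 in MEP. The summed level of the markers was 26.3 to 48.7 in LSK and 38.9 to 51.6 in MEP.

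Soluble mediators tied to fibrosis included 8 tested genes of 10, of which 3 were called lower and 1 higher in MEP, with a median of -0.89. Pf4, platelet factor 4, was 4.26-fold higher (log2 difference 2.09, SE 0.50, limma adjusted p = 0.0134), with 5.09 to 6.02 in LSK and 6.70 to 8.89 in MEP. The cytokines Tnf and Osm were 4.91-fold and 3.85-fold lower. Vegfa was 2.26-fold lower (adjusted p = 0.0284), a call lost when any 1 of 5 arrays was left out, with adjusted p up to 0.0772. Megakaryocyte markers, which include Pf4, had 5 of 14 called higher and 2 lower in MEP, with summed levels of 79.5 to 112 in LSK and 133 to 590 in MEP, and their part in these differences was not tested.

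With JAK2V617F, Lcn2 was the only gene called in the 7 pathway lists. At an unadjusted limma p under 0.05, 10 of the 60 genes tested were higher and 12 lower with JAK2V617F. Over all genes tested 10.9% passed that mark and 5.61% were lower. Lcn2, lipocalin 2, a granule protein of neutrophils, was 5.52-fold higher (log2 difference 2.46, SE 0.36, limma adjusted p = 0.0438) in 4 of 4 pairs. It read -0.39, -1.03, 3.19 and 1.30 in LSK and -0.70, -0.46, 1.55 and 1.23 in MEP, so that every JAK2V617F array lay above every array without it. The call was lost with quantile normalization (adjusted p = 0.0758), with no filter on dim probes (adjusted p = 0.0855) and when any 1 of 5 arrays was left out (adjusted p up to 0.227). Granulocyte markers moved the same way, as given above. With the Ezh2 deletion 0 genes of these lists were called by limma. At an unadjusted p under 0.05, 15 of the 60 genes tested in the 7 lists were higher and 3 lower with the deletion, where 18.1% of all genes passed that mark and 7.76% were higher.

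For the 6 genes above background on every array, the genes with the most similar pattern over the 8 arrays were taken by Pearson r of the level among 10475 genes above background on all of them. These r values are descriptive, over 8 arrays that share a slide and a scaling, and they hold the difference between the cell types as well as that between genotypes. Tgfb1 was nearest to Ncaph (r = 0.997), Vps51 (0.979) and Btbd2 (0.979). For Tgfbr1 the nearest were Rnf11 (0.975), Zbtb20 (0.967) and Iffo2 (0.963), and for Tgfbr2 H2-Ob (0.997), Kctd10 (0.991) and Msi2 (0.991). Smad7 was nearest to Sertad2 (0.969), Skil (0.962) and Slc22a5 (0.960). Pdgfa followed Slc2a1 (0.986), Wsb1 (0.976) and Nxt2 (0.974), and Pdgfb followed Dcaf10 (0.949), Rbpms2 (0.915) and Nbl1 (0.891).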

How the data were processed

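In the deposited scanner files each array has an intensity for 62976 spots in 1 colour, of which 3671 are controls. Per the file headers, Feature Extraction 10.7.1.1 removed the background, with no scaling between arrays. A linear ratio fills the authors' series table, which equals the processed signal over 1 factor an array (SD of the log2 difference at most 0.0178) and was used as an alternative. Spots with outlier flags (91 to 151 an array) were left out and the spots of a probe averaged. The log2 signal was then centred on the 75th percentile of each array. Of 55681 probes 27509 (49.4%) matched 20887 genes by RefSeq accession. A gene was tested if its brightest probe was well above background on 2 or more of the 8 arrays (13187 genes). A gene detected in 1 cell type alone passes through that cell type, so its call between LSK and MEP is tied to the filter. Among the genes named as changed, Tgfb3, Itgav, Acvr1b, Col4a1 and Col4a2 passed through LSK alone. Ltbp1 and Cdkn2b passed through MEP alone.

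The models were run in limma 3.58.1 (R 4.3.3) and tested on simulated data. For a dimmer group below background on every array, each array's lowest signal above background stands in, and the fold is a bound. The number of arrays limits the precision.

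The genes, the gene lists and the settings were chosen with earlier results of these data known. The text names all 10 genes, up to 4 called genes a list and comparison by size of change, 10 further pathway genes (1 of them is not reported here), and the 3 genes nearest each gene detected on all arrays. Other lists are cell type markers, and single genes of the lists are also named for whether they were detected. Promoters came from RefSeq (GRCm38.p6) by symbol. Settings tried were normexp background correction (offset 50), quantile normalization, the series table, 2 other filters, the mean of all probes, dim values raised, a prior with an intensity trend, outlier spots kept, an adjusted p under 0.10, and leaving out each array.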

Additional observations from a re-analysis of the deposited data

How the results depend on the processing

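The count of the 10 genes called in MEP against LSK was 4 and ranged from 3 to 6 over the settings tried; the 6, with no filter, includes Lox and Tgfb2, which were not well above background on any array. With JAK2V617F and with the Ezh2 deletion it was 0 in all of them. Over all genes the JAK2V617F count of 43 became 104 with normexp, 27 with quantile normalization, 143 for genes above background on all 8 arrays, 19 with no filter, 88 with dim values raised and 128 with an intensity trend, and 0 to 64 without 1 array, with 0 without the double mutant MEP array and 3 without the JAK2V617F one. For the Ezh2 deletion 95 became 44 with quantile normalization, 52 with no filter and 189 with the trend and as few as 13 without 1 array, the double mutant MEP one. With an adjusted p under 0.10 these counts were 123 and 228. The count for MEP against LSK, 5272, became 9680 with no filter. Some uncalled values changed sign. Tgfb1 in MEP against LSK was -0.051 with normexp and -0.11 with quantile normalization, and -0.13 to 0.17 without 1 array. With JAK2V617F Tgfb1 was -0.12 to 0.13 without 1 array. With the Ezh2 deletion Tgfb3 was -0.20 with quantile normalization and -0.046 from the series table, and -0.31 to 0.30 without 1 array, and Tgfbr2 was -0.45 to 0.23. In MEP against LSK Smad7 was -0.42 to 0.15 and Thbs1 -0.18 to 0.92 without 1 array, Thbs1 passing the test without the WT MEP array (adjusted p = 0.0428). A called value changed sign too: Acvr1b in MEP against LSK was 0.37 with dim values raised, where it was not called. With normexp Acvr1b was -0.14 and also lost its call (limma adjusted p = 0.421). The cause of these changes was not tested. Quantile normalization moved the median of all genes in MEP against LSK from 0.12 to 0.01. No paired analysis was possible because each group has 1 array, so no replicate numbers link arrays of different groups; the matching of arrays by cell type and genotype is already part of the fit. Low signal limits Tgfb2, Lox and Timp1 on every array and Tgfb3 in MEP.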
